A study of Mus musculus with 14 samples.

Results

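Histone lysine demethylases were examined in germinal centre B cells of mice that carried 0, 1 or 2 floxed copies of Crebbp. The 8 genes described are Kdm5b and 7 relatives, Kdm5a, Kdm1a, Kdm2b, Kdm3a, Kdm4a, Kdm6b and Kdm7a, chosen by name. Kdm5b was put at the head of the set because it was already known to be higher in knockout than in wild-type cells, so the values of all 8 genes in comparisons that use the knockout arrays are given as a description, without a test or a call. Every probe set annotated to one of these genes alone was taken, 25 of the 45101 probe sets on the array. They are 6 for Kdm5a, 4 for Kdm5b, 2 each for Kdm1a, Kdm2b and Kdm4a, 1 for Kdm3a, 3 for Kdm6b and 5 for Kdm7a. A further probe set annotated to Kdm6b together with another gene was left out.

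Expression was measured with an Affymetrix whole-genome mouse array, 1 per mouse, in splenic B220+CD95+PNA+ cells, the surface phenotype of germinal centre B cells. All 14 mice carried the Cg1-Cre transgene, which is driven from the immunoglobulin heavy chain gamma 1 locus and recombines floxed DNA in B cells after activation. Every mouse was of the C57BL/6x129Sv background, 8 to 12 weeks old, and received sheep red blood cells as immunogen on day 0 and again on day 5, with spleens taken on day 12. Wild-type mice (WT, Crebbp+/+ Cg1-Cre, n = 4, 3 females and 1 male) had 0 floxed Crebbp alleles. Heterozygous mice (HET, Crebbpfl/+ Cg1-Cre, n = 5, 3 females and 2 males) had 1 floxed allele and knockout mice (KO, Crebbpfl/fl Cg1-Cre, n = 5, 2 females and 3 males) had 2. The share of cells that had recombined was not measured, and in sorted bulk cells fewer cells of a type and less RNA per cell cannot be told apart. The number of arrays limits the precision.

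CREBBP is a coactivator that acetylates histones at enhancers and promoters. Histone lysine demethylases act on the same chromatin by removing methyl groups, KDM1A (LSD1) through a flavin-dependent amine oxidase fold and the JmjC enzymes through iron and 2-oxoglutarate. KDM5 enzymes remove H3K4 methylation, a mark of active promoters, KDM3 and KDM4 enzymes remove the repressive mark H3K9 methylation, and KDM6 enzymes remove the Polycomb mark H3K27 trimethylation. In the germinal centre, where H3K4 methyltransferase KMT2D and H3K27 methyltransferase EZH2 are recurrent targets of lymphoma mutations, the balance of these marks is known to shape B cell differentiation.

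The arrays gave the context for these values. Of the 12 markers listed for germinal centre B cells, 10 had a probe set of their own, and all 10 lay above the level filter of 6.43 log2 units, the median of all non-control probe sets. Of these 10, 7 had negative and 3 positive KO changes, with 1 called, where 2.44% of all tested genes were called. Rgs13, a regulator of G protein signalling, fell by 0.62 in KO (SE 0.12, limma adjusted p = 0.0180). Among all single-gene probe sets the limma adjusted p of Rgs13 was 0.0503, which did not pass. Its arrays spanned 11.77 to 11.88 in WT, 11.52 to 11.76 in HET and 10.75 to 11.48 in KO, without overlap in any pair. Cd79a, part of the B cell receptor, was lower in KO without overlap but did not pass (-0.18, SE 0.06, adjusted p = 0.144), and Bcl6 had 0.00 (SE 0.05). All 4 probe sets of Crebbp had negative KO changes, from -0.86 to -0.30 log2 units, although the position of their probes relative to the floxed exons is not known here, and its paralogue Ep300 differed by -0.01 (SE 0.13). The array of KO 3 correlated least with the others (median 0.979, against 0.984 to 0.990 for the other 13). Marker lists were examined for T cells, myeloid cells, plasma cells, naive B cells, erythroid cells and stroma. Their mean log2 levels overlapped between KO and WT in 6 of 6 lists. Above the filter lay 2 of 6 T cell, 4 of 7 myeloid, 4 of 5 naive B cell and 0 of 4 erythroid markers. Cd3d, Cd3g, Cd4, Csf1r, Itgam and Hba-a1 were among the markers below it. The plasma cell list, with 5 of 6 genes above the filter, had mean levels of 9.49 to 9.66 in WT and 9.32 to 9.66 in KO, and the stroma list, with 2 of 6, had 6.36 to 6.59 and 6.12 to 6.57. Within these lists the plasma cell marker Sdc1 was higher in KO by 0.81 (SE 0.19, limma adjusted p = 0.0404), while the other 4 tested plasma cell genes had negative values, Irf4 -0.30, Prdm1 -0.28, Xbp1 -0.15 and Jchain -0.06, none of which passed, and the list median was -0.15. The endothelial marker Pecam1 was lower by 0.56 (log2 change -0.56, SE 0.13, adjusted p = 0.0389). Whether the calls of Rgs13, Sdc1 and Pecam1 hold with 1 array left out was not examined. The immediate early list, genes such as Junb and Egr2 that respond to stimulation and to cell handling, had negative KO changes in 9 of 9 tested genes, with a median of -0.51 and 0 called by limma. Its mean level ranged from 8.65 to 9.41 in WT and from 8.19 to 9.11 in KO. Their part in the values below was not tested.

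Kdm5b, which encodes an H3K4 demethylase of the JARID1 family, had the clearest difference in the set, and its group means were ordered by the number of floxed alleles. On its brightest probe set, 1427142_s_at, the log2 intensity was 6.80, 6.71, 6.12 and 6.91 in WT 1 to 4. It was 7.32, 7.17, 7.05, 7.50 and 6.79 in HET 1 to 5, and 8.09, 7.82, 7.91, 7.85 and 8.40 in KO 1 to 5. No KO array came down to any WT or HET array, a separation from WT in this direction that 2.87% of tested genes had, while HET 5 lay within the WT range. The means were 6.64 ± 0.36 (SD, n = 4) in WT, 7.17 ± 0.27 (SD, n = 5) in HET and 8.01 ± 0.24 (SD, n = 5) in KO. The WT mean thus lay close to the level filter of 6.43, and WT 3 lay below it. With sex held as a covariate in limma, KO exceeded WT by 1.26 log2 units (SE 0.15, 95% interval 0.94 to 1.59), which is 2.40-fold. Only 4 of the 10225 tested genes had a larger positive KO change. This rank and the share of 2.87% are printed for scale only, because Kdm5b was chosen on this contrast. Leaving out any 1 of the 14 arrays gave changes from 1.13 to 1.34, and females alone gave 1.33 (SE 0.20).

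The other 3 probe sets of Kdm5b were dimmer, all below the level filter in their mean, and their differences were smaller. On 1427143_at the WT arrays read 5.99, 5.62, 5.66 and 6.08 and the KO arrays 6.62, 6.47, 6.43, 6.70 and 7.17. These groups did not overlap, and the KO change was 0.75 (SE 0.15). On 1457482_at the WT values of 5.18, 4.89, 5.21 and 5.04 lay below the KO values of 5.36, 5.33, 5.66, 5.31 and 5.34, with a KO change of 0.37 (SE 0.09). On 1442278_at the KO range of 4.60 to 5.31 contained the WT range of 4.71 to 4.96, and the change was 0.17 (SE 0.13). So KO lay above WT without overlap on 3 of 4 probe sets, where 1.64% of the 34945 single-gene probe sets did so, a share that is printed for scale only because the gene was chosen on this contrast. Where each probe set lies in the transcript was not analysed here. Whether the probes of 1427142_s_at, which is of the _s_at class, also bind other transcripts was not examined.

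**Figure D1:**
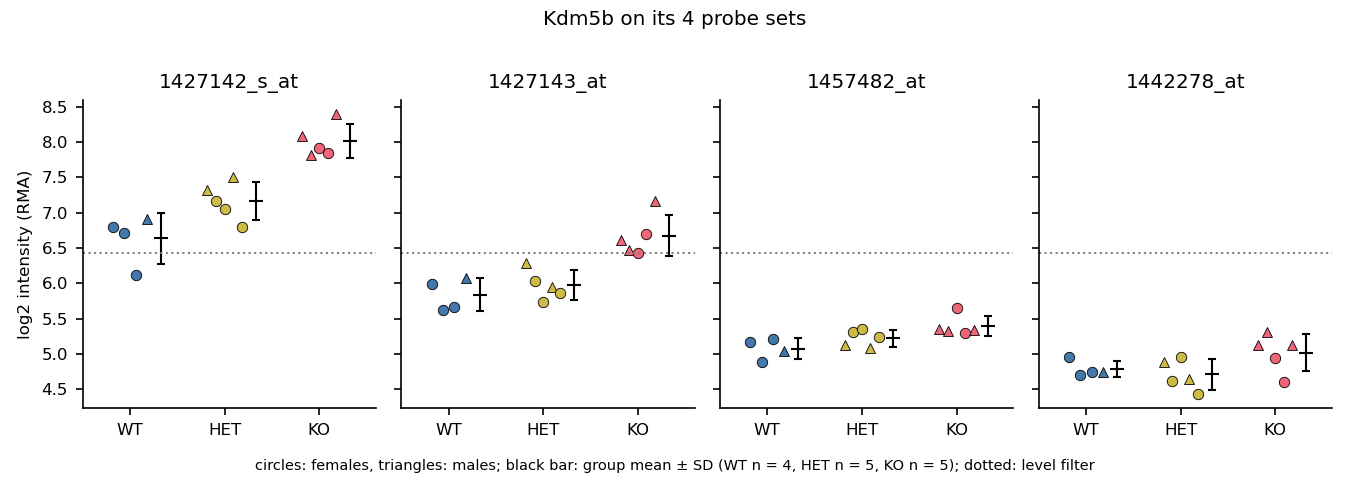
Log2 RMA intensity of Kdm5b in each mouse on its 4 probe sets, by genotype, with circles for females, triangles for males and black bars for group mean ± SD (WT n = 4, HET n = 5, KO n = 5). KO arrays lie above all WT arrays on 1427142_s_at, 1427143_at and 1457482_at and overlap them on 1442278_at, and the dotted line marks the level filter of 6.43.

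The sequence just upstream of Kdm5b is shown because Kdm5b is the member whose level changed with genotype, beside that of Kdm4a, the member with the next largest KO difference. Both come from RefSeq (GRCm38.p6) and cover the 250 bases before the annotated start. Kdm5b lies on the plus strand at chr1:134559928-134560177 and Kdm4a on the minus strand at chr4:118180044-118180293, and each is written 5′ to 3′ along its gene. Capitals mark TGACG, the half-site of the cyclic AMP response element bound by CREB, searched on both strands. The full element TGACGTCA contains that half-site on each strand.
Kdm5b: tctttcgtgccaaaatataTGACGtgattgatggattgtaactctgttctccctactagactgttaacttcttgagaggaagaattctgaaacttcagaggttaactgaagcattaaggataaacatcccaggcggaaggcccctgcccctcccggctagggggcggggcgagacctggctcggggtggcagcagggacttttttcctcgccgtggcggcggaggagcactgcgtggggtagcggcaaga
Kdm4a: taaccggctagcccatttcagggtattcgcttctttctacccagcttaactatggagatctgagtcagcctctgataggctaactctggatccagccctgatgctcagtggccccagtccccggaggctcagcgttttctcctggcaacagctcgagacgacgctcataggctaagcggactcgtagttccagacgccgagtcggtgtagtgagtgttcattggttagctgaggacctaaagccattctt
The Kdm5b window held 1 half-site, 229 bases before the start, and the Kdm4a window held 0. Such a match occurred in 17.7% of the 32817 promoter windows of the same length. The full element occurred in 1.55% of all windows and in 0 of the 11 windows listed for 6 of the 8 genes, and the half-site in 4 of the 11, of which 3 belong to alternative starts of Kdm2b, with overlapping windows among them. GC content was 54.4% with 13 CpG dinucleotides for Kdm5b and 53.6% with 12 for Kdm4a, near the median of 52.4% and above the median of 6 CpG over all windows. The Kdm7a window, in comparison, was 82.0% GC with 56 CpG. These are descriptions of the letters in the window and not of binding.

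The difference in Kdm5b was not shared by the 7 relatives. In KO against WT their changes ran from -0.25 to 0.11 log2 units with a median of -0.01, where the median of all tested genes was -0.0027. The changes were positive for 3 and negative for 4 of them. The highest upper bound of a 95% interval among the relatives was 0.32, or 1.25-fold, and for 7 of 7 that bound lay below the lower bound for Kdm5b. Because Kdm5b was chosen on this contrast, the comparison of bounds is a description and not a test.

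**Figure D2:**
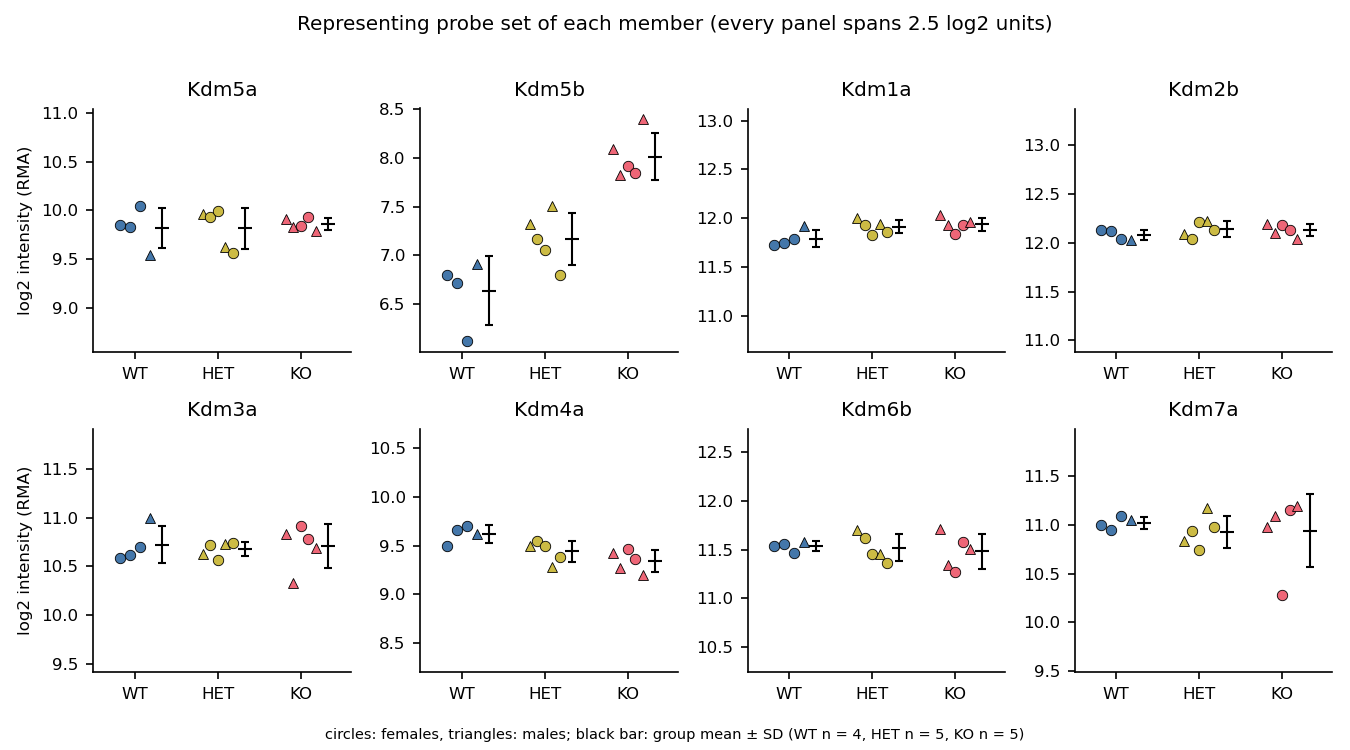
Log2 RMA intensity of the 8 demethylase genes in each mouse, on the probe set that represents the gene, by genotype, with circles for females, triangles for males and black bars for group mean ± SD (WT n = 4, HET n = 5, KO n = 5). Each panel spans the same 2.5 log2 units, so the separation of KO from WT in Kdm5b can be set against the narrow gap in Kdm4a, the overlap in the other 6 genes and the low Kdm7a value of KO 3.

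Kdm5a, the closest autosomal relative of Kdm5b and an H3K4 demethylase first found as a binding partner of the retinoblastoma protein, showed no such pattern. Its brightest probe set read 9.85, 9.83, 10.04 and 9.55 in WT, 9.96, 9.93, 9.99, 9.62 and 9.56 in HET, and 9.91, 9.83, 9.84, 9.93 and 9.79 in KO. The KO values lay inside the WT range, and the KO change was 0.08 (SE 0.11). The other 5 probe sets of Kdm5a had KO changes from -0.28 to 0.20, and each overlapped between KO and WT. KO 3 was the lowest array on 1437105_at, with 8.65 against 9.37 to 9.87 in the other KO mice.

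Kdm1a, the flavin-dependent enzyme that removes mono- and dimethyl marks from H3K4 within the CoREST complex, had slightly higher means in mice with floxed alleles. Its 95% intervals for HET and KO against WT included 0. Its brightest probe set read 11.72, 11.74, 11.78 and 11.92 in WT, 12.00, 11.93, 11.83, 11.94 and 11.86 in HET, and 12.03, 11.93, 11.84, 11.93 and 11.96 in KO. WT 4, the only male in its group, overlapped both other groups. The KO change was 0.11 (SE 0.05, 95% interval -0.01 to 0.22), and on the second probe set it was 0.07 (SE 0.08). Kdm2b, a CXXC protein that recruits a Polycomb complex to CpG islands and acts on H3K36, had KO changes of 0.06 (SE 0.06) and -0.06 (SE 0.09) on its pair of probe sets. Its arrays spanned 12.03 to 12.14 in WT and 12.04 to 12.19 in KO on the first of them.

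Among the H3K9 demethylases, Kdm4a, which also acts on H3K36, had the largest difference of the relatives. Its brightest probe set read 9.49, 9.66, 9.70 and 9.62 in WT, 9.50, 9.54, 9.49, 9.28 and 9.39 in HET, and 9.43, 9.27, 9.46, 9.36 and 9.19 in KO. All 5 KO values lay below all 4 WT values, as was the case for 3.65% of the tested genes, but by only 0.03 between WT 1 and KO 3. The KO change was -0.25 (SE 0.08, 95% interval -0.41 to -0.09), a ratio of 0.841, and it ran opposite to Kdm5b. The second probe set of Kdm4a lay below the level filter and had a change of -0.11 (SE 0.11). Kdm3a, a hypoxia-inducible enzyme for mono- and dimethylated H3K9, spanned 10.58 to 11.00 in WT and 10.33 to 10.91 in KO. Its KO change was -0.01 (SE 0.12), and in females alone the value was 0.21 (SE 0.09).

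The H3K27 demethylases stood apart from Kdm5b as well. Kdm6b (JMJD3), which is induced by inflammatory signals, read 11.54, 11.56, 11.46 and 11.58 in WT and 11.71, 11.35, 11.27, 11.57 and 11.51 in KO. KO values lay on both sides of the WT range, the change was -0.08 (SE 0.09), and its other probe sets gave -0.14 (SE 0.15) and -0.02 (SE 0.13). The brightest set is of the _x_at class, in which some probes can bind other transcripts. Kdm7a, a PHD-finger enzyme for H3K9 and H3K27, read 11.00, 10.95, 11.09 and 11.05 in WT and 10.97, 11.09, 10.28, 11.15 and 11.19 in KO. KO 3 alone stood below the rest, and the change of -0.15 (SE 0.15) became 0.06 (SE 0.10) without that array. The other 4 probe sets of Kdm7a had KO changes from -0.02 to 0.11. Over all 21 probe sets of the 7 relatives, 8 KO changes were positive and 13 negative. For 1 of the 21 the groups did not overlap, against 3.68% of all single-gene probe sets.

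**Figure D3:**
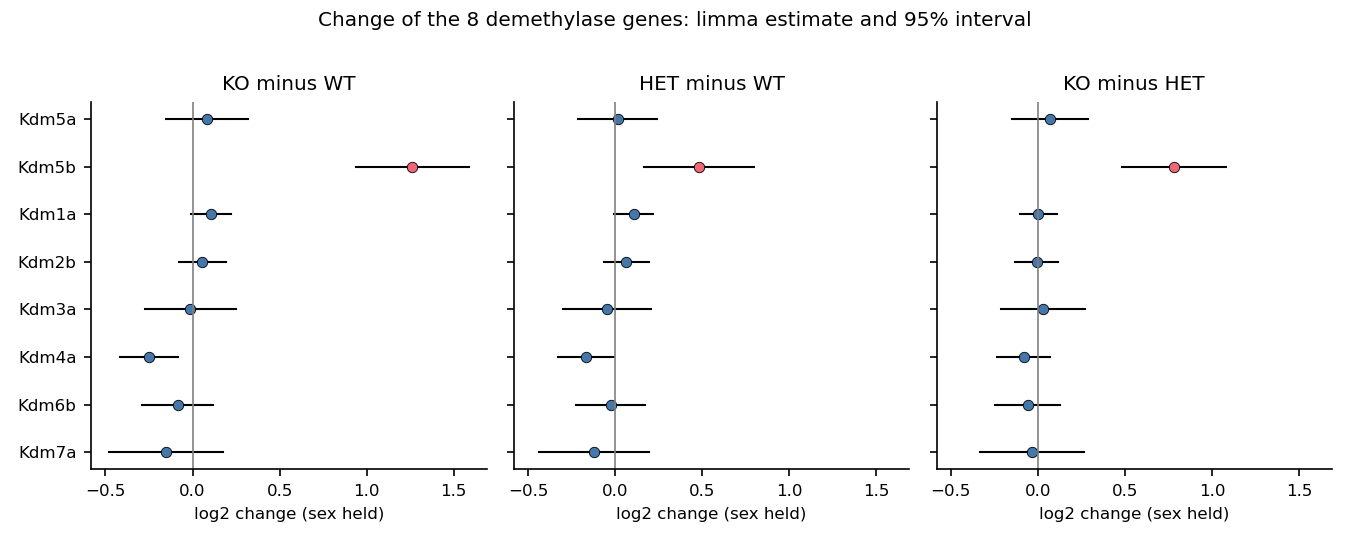
Log2 change of the 8 demethylase genes in KO minus WT, HET minus WT and KO minus HET, with the limma estimate as a point and its 95% interval as a line, sex held as a covariate. Kdm5b, in red, has the only interval above 0 in KO minus WT, from 0.94 to 1.59, and the intervals of Kdm5a, Kdm1a, Kdm2b, Kdm3a, Kdm6b and Kdm7a include 0 in all 3 comparisons.

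In mice with 1 floxed allele the Kdm5b value lay between WT and KO, but the gene did not pass over all genes. This comparison uses the same WT arrays as the comparison that chose Kdm5b, and other HET arrays. The HET value of Kdm5b is therefore not independent of that choice. Its p-values here, and the counts of the 8 genes that include it, are printed for scale only and are not a test. The HET change on the brightest probe set was 0.48 (SE 0.15, 95% interval 0.17 to 0.80, limma adjusted p = 1), 38.2% of the KO change. On 1427143_at it was 0.10 (SE 0.14), on 1457482_at 0.17 (SE 0.09) and on 1442278_at -0.11 (SE 0.13). HET and WT overlapped on all 4 probe sets, and did not overlap on 1.13% of single-gene probe sets. In limma 0 of the 8 genes passed, with Kdm5b and Kdm4a at an unadjusted p under 0.05, and 0% of all tested genes passed, with 2.74% at an unadjusted p under 0.05. Kdm4a had a HET change of -0.17 (SE 0.07, adjusted p = 1), and the 7 relatives ranged from that value to 0.11.

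Between KO and HET, which share no WT arrays but include the KO arrays of the first comparison, Kdm5b was higher in KO by 0.78 (SE 0.14) on its brightest probe set and by 0.65 (SE 0.13) on the next. On both, the lowest KO array, 7.82 and 6.43, lay above the highest HET array, 7.50 and 6.29, an order without overlap that 0.429% of single-gene probe sets had, a share printed for scale only because the same KO arrays had singled the gene out. With 1 array left out the value on the brightest probe set ran from 0.72 to 0.86. The 7 relatives had changes from -0.08 to 0.07, each with a 95% interval that includes 0, and for 7 of 7 the upper bound lay below the lower bound of 0.48 for Kdm5b. For the same reason this comparison of bounds is a description and not a test.

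Sex was not used in choosing the genes, and it could be tested. None of the 8 genes passed for male against female in limma, where 0.0293% of tested genes did, and 2 of the 8 had an unadjusted p under 0.05, as had 6.38% of tested genes. Kdm5b was 0.33 higher in males (SE 0.12, adjusted p = 0.765). The WT male read 6.91 against 6.12 to 6.80 in WT females, the HET males 7.32 and 7.50 against 6.79 to 7.17, and the KO males 7.82, 8.09 and 8.40 against 7.85 and 7.91, so male KO 2 lay below both KO females. Kdm1a was 0.11 higher in males (SE 0.04, adjusted p = 0.765), and the other 6 genes had values from -0.12 for Kdm5a to 0.19 for Kdm7a. In Kdm7a the sign depended on the probe set, with values of 0.23 (SE 0.08) on 1456150_at and 0.31 (SE 0.14) on 1427359_at but -0.23 (SE 0.09) on 1459820_at and -0.29 (SE 0.09) on 1459821_x_at. None of these passed over all single-gene probe sets (adjusted p from 0.574 to 0.613).

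The sex-linked relatives of Kdm5b and Kdm6b separated by sex. Kdm5d and Uty, on the Y chromosome, were higher in all 6 males than in all 8 females. Kdm5d ranged from 7.51 to 8.51 in males (median 7.89) and from 4.66 to 5.33 in females (median 4.89), and Uty from 6.82 to 7.76 (median 7.10) against 3.70 to 4.56 (median 3.93). Both genes had means below the level filter, so they were tested among all single-gene probe sets, where 3 of 3 Kdm5d and 4 of 4 Uty probe sets passed for sex in limma, with changes of 1.70 to 5.88 and 1.99 to 5.17, while 0.0429% of those probe sets passed. Kdm5c and Kdm6a, X-linked genes that are known to escape X inactivation, had lower values in males. Kdm5c read 11.00 to 11.31 in males (median 11.09) and 11.38 to 11.66 in females (median 11.50), a change of -0.40 (SE 0.07, adjusted p = 0.172), with 8 of 9 probe sets negative and 0 called. Kdm6a read 10.10 to 10.58 in males (median 10.42) and 10.70 to 11.40 in females (median 11.00), a change of -0.61 (SE 0.11, adjusted p = 0.228), with 1 of its 4 probe sets called. The sexes did not overlap for either gene, as for 0.166% of tested genes. In KO against WT the value was 0.01 for Kdm5c (SE 0.09, limma adjusted p = 0.991) and -0.06 for Kdm6a (SE 0.14, adjusted p = 0.936).

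**Figure D4:**
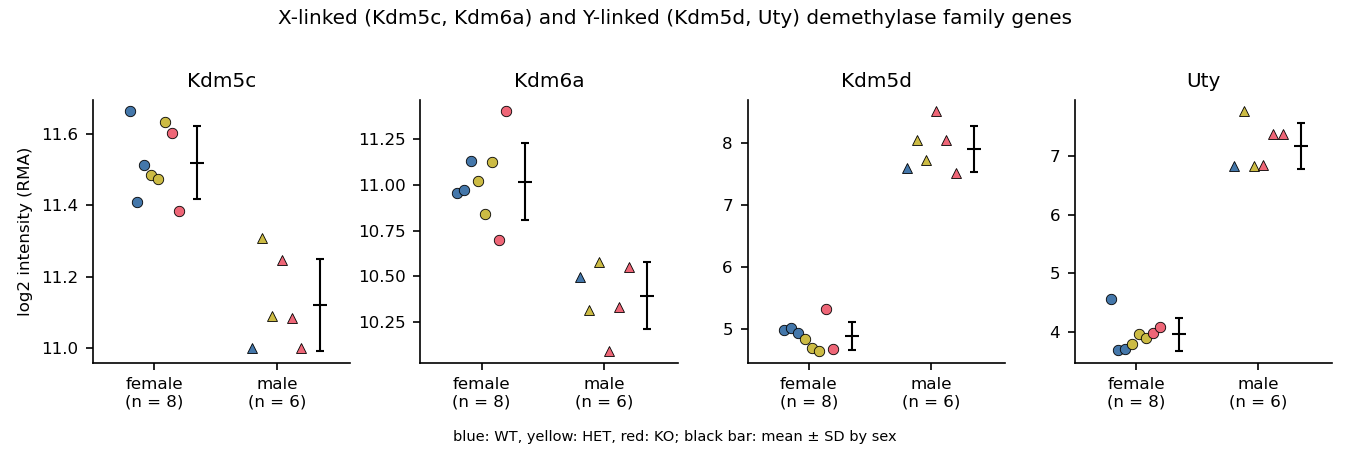
Log2 RMA intensity of the X-linked genes Kdm5c and Kdm6a and the Y-linked genes Kdm5d and Uty in each mouse, by sex (8 females, 6 males), with colours for genotype and black bars for mean ± SD by sex. Females lie above males for Kdm5c and Kdm6a and below them for Kdm5d and Uty, without overlap in any of the 4 panels, each of which has its own axis range.

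The remaining lysine demethylases and JmjC proteins held no gene that was called higher in KO. Of 24 such genes with a probe set, 20 were tested, and 0 were higher and 2 lower in KO at an adjusted p of 0.05 in limma, with 3 at an unadjusted p under 0.05. Of all 10225 tested genes 1.17% were called higher and 1.26% lower, and 13.1% had an unadjusted p under 0.05. The other demethylases had a median of -0.04 over 13 tested genes and the other JmjC proteins a median of 0.09 over 7. Jmjd1c, a relative of Kdm3a, read 11.41, 11.30, 11.47 and 11.43 in WT, 11.32, 11.33, 11.14, 11.28 and 11.28 in HET, and 11.24, 11.13, 11.10, 11.14 and 11.03 in KO. The groups WT and KO did not overlap, and Jmjd1c changed by -0.29 (SE 0.07, limma adjusted p = 0.0372). Jarid2, a JmjC protein without demethylase activity that belongs to the Polycomb complex PRC2, read 10.83, 10.70, 10.84 and 10.66 in WT, 10.75, 10.62, 10.49, 10.47 and 10.33 in HET, and 10.51, 10.35, 10.40, 10.15 and 10.09 in KO. WT and KO did not overlap there either, and Jarid2 changed by -0.47 (SE 0.11, adjusted p = 0.0351).

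Both calls were narrow. With 1 array left out, Jmjd1c passed in 5 of 14 fits and Jarid2 in 7 of 14. Jmjd1c was lost without WT 1, WT 3, WT 4, HET 1, HET 5, KO 2, KO 3, KO 4 or KO 5 (adjusted p from 0.0540 to 0.117), with changes from -0.32 to -0.26 over all 14 fits. Jarid2 was lost without WT 1, WT 2, WT 3, WT 4, HET 3, KO 2 or KO 4 (adjusted p from 0.0554 to 0.1002), with changes from -0.54 to -0.42. All 3 probe sets of each gene had negative KO changes, from -0.56 to -0.29 for Jmjd1c and from -0.47 to -0.32 for Jarid2. In HET the values were -0.14 (SE 0.06) for Jmjd1c and -0.23 (SE 0.10) for Jarid2, each with limma adjusted p = 1.

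**Figure D5:**
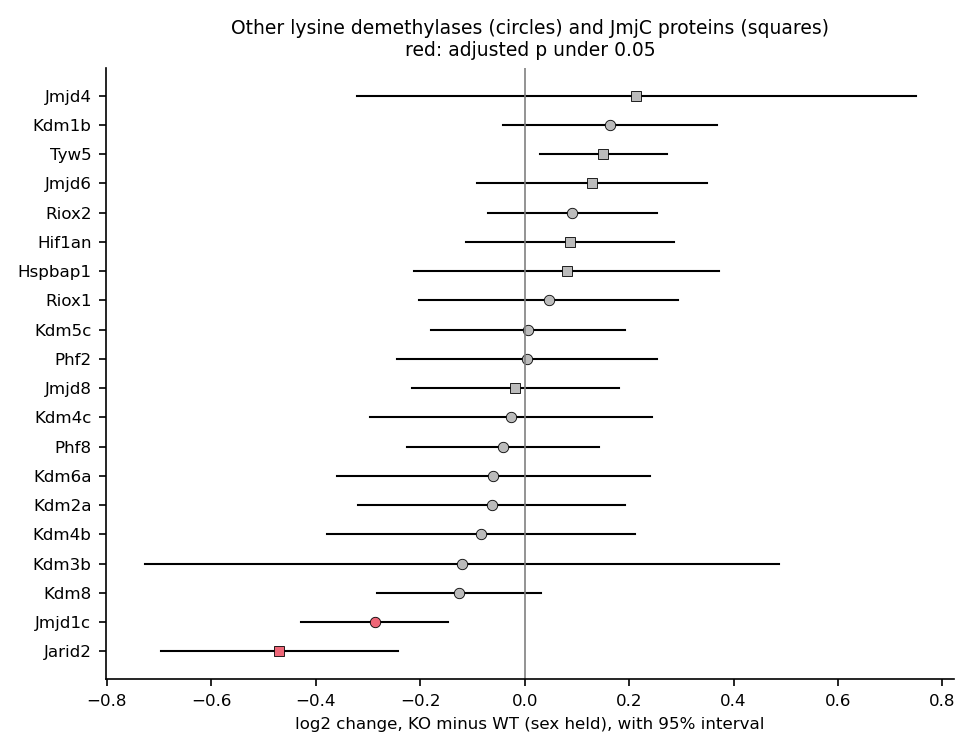
Log2 change in KO minus WT, with its 95% interval and sex held as a covariate, of the 20 tested lysine demethylases (circles) and other JmjC proteins (squares) outside the 8 genes. Jmjd1c at -0.29 and Jarid2 at -0.47, in red, passed an adjusted p of 0.05, and the other 18 genes, in grey, did not.

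The enzymes that write the marks removed by these demethylases were next examined. Of 33 tested methyltransferase genes and subunits for H3K4, H3K9, H3K27 and H3K36, 0 passed in KO against WT in limma, where 2.44% of all tested genes did, and 1 had an unadjusted p under 0.05, where 13.1% did. Their changes ran from -0.26 to 0.17. The medians were 0.00 for the 13 H3K4 genes, -0.05 for the 6 H3K9 genes, -0.01 for the 10 PRC2 genes of H3K27 and -0.08 for the 4 H3K36 genes. For H3K4, which KDM5B opposes, the smallest p-values were those of Setd1a at -0.12 (SE 0.07, adjusted p = 0.546) and the shared subunit Ash2l at 0.17 (SE 0.12, adjusted p = 0.638). Setd2, which adds the last methyl group to H3K36, had -0.26 (SE 0.10, adjusted p = 0.285) and Nsd2, which places dimethyl marks on H3K36, 0.13 (SE 0.06, adjusted p = 0.393). The H3K9 enzyme gene Ehmt2 and its partner Wiz had -0.18 (SE 0.11) and -0.13 (SE 0.09), and the PRC2 genes Mtf2 and Eed 0.12 (SE 0.08) and -0.13 (SE 0.09), with adjusted p from 0.533 to 0.664.

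Of 24 tested partners of KDM1A, KDM2B and the KDM5 enzymes, 1 passed in KO against WT, a share near the 2.44% of all tested genes. It was Gfi1, a zinc finger repressor that recruits KDM1A and CoREST to its targets, which was already among the genes known to be higher in these KO cells and so adds no independent support. Gfi1 read 6.75, 6.79, 7.29 and 7.32 in WT, 7.67, 7.81, 7.36, 7.57 and 7.47 in HET, and 8.08, 8.19, 8.46, 8.18 and 8.64 in KO. The groups did not overlap in any pair, and Gfi1 rose by 1.23 in KO (SE 0.15, limma adjusted p = 0.000934), with a HET value of 0.52 (SE 0.15, adjusted p = 1). Its paralogue Gfi1b had a KO value of -0.34 (SE 0.11, adjusted p = 0.144). In the KDM2B complex PRC1.1, 0 of 7 tested genes passed, and the smallest p-values were those of Bcor at -0.26 (SE 0.10, adjusted p = 0.239) and Skp1 at 0.17 (SE 0.09, adjusted p = 0.439). Among 8 tested SIN3 and retinoblastoma partners of KDM5 enzymes 0 passed, with Phf12 at -0.19 (SE 0.10, adjusted p = 0.452) and Ing2 at -0.18 (SE 0.11, adjusted p = 0.571).

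The genes whose pattern over the 14 arrays was closest to that of Kdm5b were found by the root mean square difference of log2 values, each gene centred on its own WT mean. They were Prmt2, which encodes a protein arginine methyltransferase, with a difference of 0.28, the phosphoinositide phosphatase gene Pip4p2 with 0.29, Armcx4 with 0.30, Gfi1 with 0.31 and Rdx, which encodes the actin linker radixin, with 0.33. Their KO changes were 1.01, 1.04, 1.22, 1.23 and 1.01 log2 units, beside 1.26 for Kdm5b, and their HET changes 0.39, 0.33, 0.26, 0.52 and 0.36. Among the relatives Kdm1a was the closest, with a difference of 0.81 and 1066th of 10224 genes by this measure, and Kdm4a the farthest, with 1.12 and 9710th. The genes near Kdm5b share its dependence on genotype by construction, so this likeness is a description over 14 arrays and carries no test.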

How the data were processed

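The authors deposited a log2 intensity for every probe set on every array, made with RMA per the submitters' processing notes; which version is not given in the sources used here. RMA subtracts background, normalises arrays to common quantiles and summarises probes, so a change of most genes in 1 direction would not be seen. Per the labels' protocols, 25 ng of total RNA was amplified and 3.75 ug of cDNA labelled. The platform annotation named 1 gene for 34945 of 45101 probe sets, and 34741 matched RefSeq by identifier. A gene was represented by its probe set with the highest mean, and 10225 of 18193 genes lay above 6.43, the median of non-control probe sets. Limma 3.58.1 in R 4.3.3 (lmFit, eBayes) was fitted on all 14 arrays with group and sex, with Benjamini-Hochberg adjustment over all tested genes and a threshold of 0.05. Other probe sets were fitted among all single-gene probe sets without a filter. The fit was tested on simulated data. The genes, gene lists and tests were chosen with earlier results of these data known. Named genes were all members, genes of the enzyme, partner and immediate early lists that passed or, where none did, the 2 with the smallest p, the sex-linked relatives, Crebbp, Ep300 and the 5 genes closest to Kdm5b. Cell type markers and Gfi1b were named outside that rule, after their values were seen. Replicates are individual mice. The largest number of identical values in any 2 arrays was 58. Alternatives were the filter, probe sets, normalisation, covariate, limma options, replicate block, threshold, and omission of arrays.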

Additional observations from a re-analysis of the deposited data

Results flagged for a closer look

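Among the 25 probe sets of the 8 genes, 75 groups were examined for a single array far from the rest of its group, by Dixon's ratio at the 95% level, and 5 had one, where chance gives about 1 in 20. KO 3 read 10.28 on the brightest Kdm7a probe set, 1435867_at, against 10.97 or more in the other KO mice, and 5.66 on the Kdm5b probe set 1457482_at, against 5.36 or less. HET 3 read 4.32 on the Kdm5a probe set 1445541_at, with the nearest HET array at 4.84. WT 1 read 4.96 on the Kdm5b probe set 1442278_at, with the nearest WT array at 4.75, and HET 1 read 7.29 on the Kdm7a probe set 1459821_x_at, with the nearest HET array at 7.50. KO 3 is also the array with the lowest correlation to the others.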

How the results depend on the processing

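Kdm5b in KO against WT kept its sign in all 27 alternatives that gave a value, from 1.13 to 1.38, and the HET value from 0.34 to 0.56. With a floor at the 60th percentile, or with the mean of all probe sets of a gene, Kdm5b lay below the filter and had no value. The sign of the small KO change turned in some alternatives for Kdm5a (4 of 29), Kdm2b (1), Kdm3a (5) and Kdm7a (4). The count of genes called was 249 for KO against WT, 79 in females alone, 98 with only the compared groups, 424 at a threshold of 0.10, 75 without KO 3 and WT 4, and 130 to 259 with 1 array left out, of which 144, 161, 146 and 130 belong to the fits without WT 1, WT 2, WT 3 and WT 4. For HET against WT it was 0, with 6 by array weights, 1 with the replicate block and 0 with any 1 array left out. For KO against HET it was 27, with 2 without a filter, 5 with the higher floor, 0 over probe sets, 41 after median centring, 0 in females alone, 72 with array weights, 5 with only the compared groups, 16 with the replicate block, 48 at 0.10, 13 without KO 3 and WT 4, and 0 to 25 with 1 array left out, 25 of them without KO 1 and at most 16 without any other single array. For sex it was 3, with 5 without a filter, 1 with the higher floor, 1 with probe set means, 15 over probe sets, 5 with limma-trend and 2 to 3 with 1 array left out. The cause of these differences was not tested. Same-numbered arrays of different groups had residual correlations over 0.1 in 9 of 13 pairs (median 0.142), against 13 of 52 differently numbered pairs (median -0.0563). The numbers were not taken as pairing, because the labels tie them to no shared batch. In 4 of the 13 pairs the correlation was not over 0.1. Whether same-numbered arrays were handled together was not tested. With the replicate block KO against WT gave 198 genes and Kdm5b 1.30.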
